A study of Sus scrofa with 12 samples.

Results

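The rows described here are the 645 loci, of 30012 in a table of pig gene expression, whose gene name was POL or LIN1_NYCCO in any letter case. They were 447 POL rows and 198 LIN1_NYCCO rows, and each row was kept as a locus of its own. POL is the polymerase polyprotein of a retroelement, and LIN1_NYCCO is a database name for the reverse transcriptase homolog of LINE-1. LINE-1 elements are retrotransposons that copy themselves through an RNA intermediate, using an endonuclease and a reverse transcriptase that they encode. Endogenous retroviruses are the remains of germline infections, and their pol gene encodes the enzymes of reverse transcription and integration. Mammalian genomes hold many copies of both, mostly truncated, and DNA methylation and repressive chromatin are known to restrain them in embryonic and somatic cells.

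RNA was sequenced from 12 libraries in 4 groups of 3. The groups were the parthenogenetic pig embryonic stem cell (ESC) lines ESC-7 and ESC-3 (here ESC7 and ESC3), from embryos with no paternal genome, the line ESC-11 (ESC11) from in vitro fertilisation (IVF), and fibroblasts of a fetus at day 30 of gestation, taken at passage 6. Per the labels, ESCs grew on feeder cells with FGF2, activin A, CH and IWR-1 and were sorted for the surface antigen SSEA1 before extraction, and the libraries of polyA RNA were sequenced from both ends in reads of 100 bp. Each ESC group was 1 line, and IVF was represented by ESC11 alone, so that the origin of the embryo and the line cannot be told apart. Separate cultures are not named for the 3 libraries of a group, so the p-values cover only library-to-library spread, possibly of technical source.

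The unit is FPKM, in which the authors scaled the fragments of a transcript to its length and to the mapped fragments of the library. The depth behind them is unknown, since the table holds no counts. All 6 pluripotency markers (POU5F1, SOX2, NANOG, LIN28A, DNMT3B and SALL4) rose in ESCs against fibroblasts. All 7 measured fibroblast markers fell in ESCs, with a summed level of 63.3 to 103 FPKM in ESC libraries and 15818 to 15998 FPKM in fibroblast libraries. Differences below are on the log2(FPKM + 1) scale, which understates the change of low rows. A row was called when limma, fitted to the whole table, gave a Benjamini-Hochberg adjusted p under 0.05 and a log2 difference of at least 1 in either direction.

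The name POL did not separate retroviral from LINE-1 loci. By the authors' descriptions, 421 rows were matches to a LINE-1 Pol polyprotein, 192 to the LINE-1 reverse transcriptase homolog and 11 to the Pol polyprotein of a gammaretrovirus, and 21 had another description. Of the 645 rows, 624 were unannotated by the authors' status, 14 were new transcript forms of annotated loci (NEW_AS) and 7 were KNOWN. Strand was not given for 491 rows. An Ensembl identifier was present in 25 rows, and in 3 of them the reference pairs that identifier with a protein-coding gene (ANXA6, SMC2 and ODAD2), which goes against the POL name. Other rows among the 25 shared their identifier with a row that the authors named PSMD6, BOD1, SHISA6 or ZNF208. Spans ran from 124 to 442965 bp, with a median of 2406 bp, and 170 rows (26.4%) overlapped or lay within 5000 bp of another of the 645. A span is the whole genomic interval of a row. No sequence was examined, so how much of a long row is transposon sequence is not known. The name of such a row does not show that a transposon itself was transcribed. Because copies of LINE-1 resemble each other and the handling of multiply mapped reads is not given in the sources used here, the level of a single locus is uncertain.

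Most of these rows had low FPKM in the 4 groups. Since the handling of multiply mapped reads is not known, low FPKM does not show that a row was silent. A row was tested when 3 or more libraries reached 1 FPKM, and 197 of 645 rows (30.5%) passed, 142 POL and 55 LIN1_NYCCO. The share of unannotated rows that passed was 29.2% (182 of 624) among POL and LIN1_NYCCO rows and 58.0% (4911 of 8468) among the other unannotated rows of the table. From 1000 to under 3000 bp, 26 of 291 rows (8.93%) passed against 1014 of 3131 other rows (32.4%). At 3000 bp and over, 120 of 259 rows (46.3%) passed against 2050 of 2806 (73.1%), and from 300 to under 1000 bp 31 of 69 rows (44.9%) against 1254 of 1938 (64.7%). All 5 unannotated rows under 300 bp passed, as did all 593 other rows of that length. Rows with a strand passed nearly as often as their background, 99 of 133 (74.4%) against 80.3%, whereas rows without one passed in 83 of 491 cases (16.9%) against 44.7%. These shares are descriptions without a test.

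**Figure D1:**
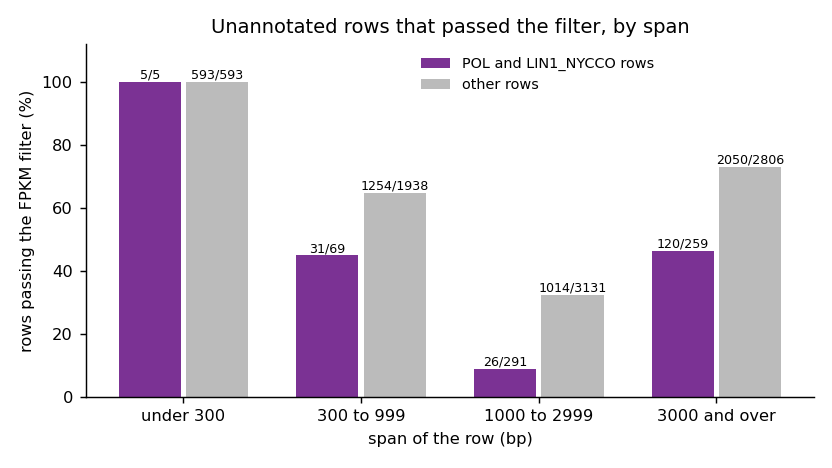
Share of unannotated rows that reached 1 FPKM in 3 or more libraries (y axis, percent) by span in bp (x axis), for POL and LIN1_NYCCO rows (purple) and all other rows (grey), with numbers of rows above the bars. The purple bar is lower in each class of 300 bp and over, and lowest from 1000 to under 3000 bp, at 8.93%.

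Among the 448 rows that did not pass, the highest value in any library was 3.01 FPKM, and the median over rows of each row's highest value was 0.625 FPKM. Of these rows, 4 were listed at 0 in all 12 libraries, and 197 were above 0 in all of them. The rows that passed were low as well. Their median in a library was 1.77 to 1.79 FPKM in ESC7, 1.70 to 1.71 in ESC3, 1.29 to 1.54 in ESC11 and 0.643 to 0.729 in fibroblasts. The medians of the other tested unannotated rows were 3.79 to 4.47 FPKM in ESC libraries and 2.90 to 3.05 FPKM in fibroblast libraries.

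The summed level of the 645 rows was set by short LIN1_NYCCO rows. The sum over all 645 was 39451, 15495 and 30030 FPKM in the ESC7 libraries, 12816, 19702 and 27711 FPKM in ESC3, 7517, 11843 and 3463 FPKM in ESC11, and 10708, 4988 and 4312 FPKM in fibroblasts. Of it, 68.4% to 96.7% in a library came from 3 rows of 124, 131 and 178 bp, at which the length normalization of FPKM is least certain, and the sums of libraries within a group differed by up to 3.42-fold. Over rows of 300 bp and more, the sum was 1156 ± 33.6 FPKM in ESC7, 984 ± 33.3 in ESC3, 992 ± 24.5 in ESC11 and 833 ± 12.8 in fibroblasts (SD, n = 3 each). For LIN1_NYCCO rows of that length it was 290 ± 8.66 FPKM in ESC7, 227 ± 15.5 in ESC3, 226 ± 4.53 in ESC11 and 123 ± 6.02 in fibroblasts. For all POL rows it was 868 ± 25.1 FPKM in ESC7, 759 ± 19.5 in ESC3, 766 ± 20.9 in ESC11 and 712 ± 8.81 in fibroblasts. A large part of the POL sum and of the sum from 300 bp was ENSSSCG00000017089.L01, whose identifier the reference pairs with ANXA6. That row averaged 220 FPKM in ESC7, 158 in ESC3, 191 in ESC11 and 271 in fibroblasts. In FPKM as deposited, ESC7 stood highest and fibroblasts lowest in these 3 sums with no library overlapping. ESC3 and ESC11 did not differ beyond their spread. The order of the groups in these sums was not computed under another scaling. Median-ratio scaling applies the same factor to every row of a library. Over all 645 rows, it moved the mean sum from 28325 to 25713 FPKM in ESC7 and from 6670 to 8461 in fibroblasts. Factors in these directions narrow the gap of ESC7 over fibroblasts and may reverse it. Fibroblasts as the lowest group may thus not hold under that scaling. As bulk levels, the sums cannot tell more cells with a transcript from more transcript per cell.

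**Figure D2:**
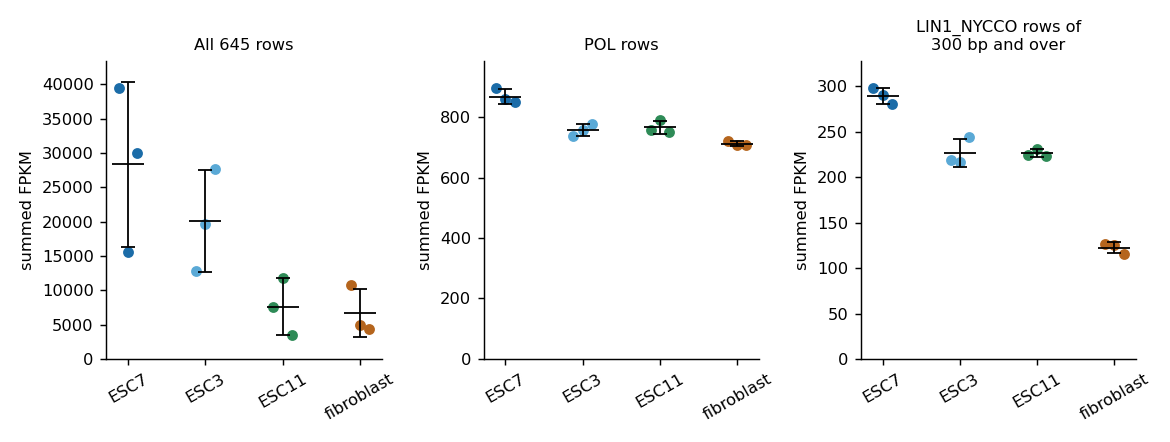
Summed FPKM (y axis, from 0) in each library (points) of ESC7, ESC3, ESC11 and fibroblasts, with the group mean (bar) and SD (whiskers, n = 3), over all 645 rows, POL rows, and LIN1_NYCCO rows of 300 bp and over. The first panel spreads from 3463 to 39451 FPKM, while in the third the fibroblast libraries, at 116 to 126 FPKM, lie below the ESC libraries, at 217 to 298 FPKM.

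The first comparison asked which of these rows differ between ESCs and somatic cells. Of the 197 tested rows, 65 (33.0%) rose in ESCs against fibroblasts and 14 (7.11%) fell. Of all 18278 tested rows, 43.1% were called, 28.1% as rising and 14.9% as falling, so the rising share lies near the background. In other tested rows weighted to the same status and span classes, 29.0% rose and 16.0% fell. The median log2 difference was 0.70 over the 197 rows and 0.44 over all tested rows. With quantile normalization 41 rows (20.8%) rose and 23 (11.7%) fell, against 3489 and 3476 of all 18278 tested rows, whose median moved to 0.10. With median-ratio scaling 55 of 191 rows (28.8%) rose and 22 (11.5%) fell, against 19.2% and 20.9% of all tested rows, with a median of 0.04. By name, 19 of 55 LIN1_NYCCO rows rose and 2 fell, and 46 of 142 POL rows rose and 12 fell. The filter bears on these counts. Of the 197 rows, 109 (55.3%) reached 1 FPKM in ESC libraries only, against 16.7% of all tested rows, and 52 of the 65 rises were among them. The 13 rows that reached it in fibroblast libraries only held 9 of the 14 falls. Of the 44 rows that reached it in all 12 libraries, 6 rose and 2 fell. Of the tested rows, 31 (15.7%) were listed at 0 in all 3 fibroblast libraries, against 7.90% of the other tested unannotated rows, and XLOC_002596 was the 1 row listed at 0 in all 9 ESC libraries.

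**Figure D3:**
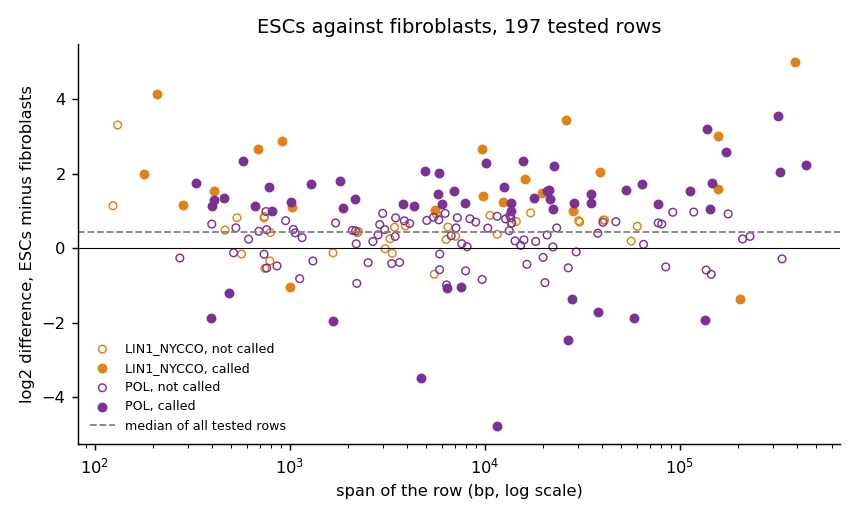
Log2 difference of ESCs minus fibroblasts (y axis, log2(FPKM + 1) scale) against span in bp (x axis, log scale) for the 197 tested rows, POL in purple and LIN1_NYCCO in orange, with called rows filled, unchanged 0 as a solid line and the median of all tested rows, 0.44, dashed. Rows called in both directions occur in each span class of 300 bp and over, while under 300 bp 3 rows rose and 0 fell. The extremes are 4.99 and -4.77.

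The row with the largest rise was named LIN1_NYCCO and spanned 388954 bp on chromosome X (XLOC_029057, X:4393332-4782285, + strand, Sscrofa10.2). It stood at 36.4, 35.7 and 36.9 FPKM in ESC7, 29.7, 28.9 and 33.0 FPKM in ESC3, 27.6, 28.1 and 28.9 FPKM in ESC11, and 0.00667, 0.0123 and 0.0459 FPKM in fibroblasts. All 9 ESC libraries lay far above the 3 fibroblast libraries, with a log2 difference of 4.99 (SE 0.04, limma adjusted p = 9.09e-15). The locus overlaps PNPLA4, a lipid hydrolase gene annotated on the opposite strand, which averaged 2.58, 2.18 and 1.69 FPKM in ESC7, ESC3 and ESC11 and 0.414 FPKM in fibroblasts. XLOC_029504, a LIN1_NYCCO row of 156549 bp (X:13793836-13950384, - strand), had 4.86 to 14.5 FPKM in ESC libraries, with a median of 5.55, and 0.0123 to 0.0325 FPKM in fibroblast libraries (log2 difference 3.02, SE 0.06, limma adjusted p = 2.75e-12).

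Other rows were detected in ESCs and listed at 0 in fibroblasts, so that no fold change can be given. XLOC_029478, a POL row of 318072 bp (X:984160-1302231, - strand), had 11.8, 9.56 and 13.4 FPKM in ESC7, 10.5, 7.69 and 9.10 FPKM in ESC3, 12.9, 11.4 and 11.7 FPKM in ESC11, and 0 in all 3 fibroblast libraries (limma adjusted p = 6.63e-11). XLOC_018954, a LIN1_NYCCO row (6:115857019-115883029, + strand), had 12.1 to 13.7 FPKM in ESC7, 6.97 to 7.64 in ESC3, 9.38 to 12.1 in ESC11 and 0 in all fibroblast libraries (limma adjusted p = 6.00e-12). XLOC_014172, a LIN1_NYCCO row (3:104024590-104034262, + strand), had 3.99 to 6.67 FPKM in ESC libraries and was listed at 0 in all fibroblast libraries (limma adjusted p = 3.51e-10). ESC3 overlapped both other lines in XLOC_014172 and lay below them in XLOC_018954.

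Chromosome X held 14 tested rows, and 10 of them rose in ESCs, while the other 4 had positive differences of 0.18 to 0.97. Among the other 509 tested X rows, 36.0% rose and 9.23% fell. The median difference was 1.37 over the 14 rows and 0.69 over the others. In 12 of the 14 rows every ESC library lay above every fibroblast library, as in 295 of the other 509 tested X rows (58.0%). The labels do not give the sex of the fetus or of ESC11, so sex and cell type cannot be told apart here.

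Short rows had a wide spread between libraries. XLOC_023019, a LIN1_NYCCO row of 209 bp on chromosome 8 (8:44386576-44386784), had 28.9 to 231 FPKM in ESC libraries, with a median of 149 FPKM, and 20.2, 0 and 13.1 FPKM in fibroblasts. It passed the test (log2 difference 4.15, SE 0.80, limma adjusted p = 5.64e-04), but lies within a locus named ZNF208, a zinc finger gene, at 30.6, 169 and 29.2 FPKM in ESC7, ESC3 and ESC11 and 4.77 FPKM in fibroblasts. XLOC_003008 (178 bp, 10:22246062-22246239) ran from 119 to 1162 FPKM in ESC libraries and from 29.0 to 190 FPKM in fibroblast libraries, and rose by a log2 difference of 1.99 (SE 0.46, limma adjusted p = 2.13e-03) although the ranges overlap.
The 131 bp row XLOC_018084 (5:91086231-91086361) was listed at 0 in 1 ESC7 library and 1 fibroblast library and reached 8315 FPKM in ESC3, and its difference did not pass the test (limma adjusted p = 0.255). The 124 bp row XLOC_006609 (13:134460253-134460376) ran from 1439 to 33985 FPKM in ESC libraries and from 3143 to 7908 FPKM in fibroblast libraries, and did not pass either (limma adjusted p = 0.0726).

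The 14 rows that fell in ESCs had no overlap between the ESC and the fibroblast libraries, which held for 97.3% of all rows called lower. Of the 65 rows that rose, 58 had no overlap, against 95.7% of all rows called higher. A rise is that of the mean of the 3 lines. XLOC_029479, XLOC_020721 and XLOC_010490 were called as rising although ESC11 overlapped fibroblasts. The largest fall was at the pol row ENSSSCG00000029683.L01 (15:128593122-128604705, - strand), with 0.424, 0.603 and 0.649 FPKM in ESC7, 0.138, 0.963 and 0.121 FPKM in ESC3, 0.316, 0.279 and 0.522 FPKM in ESC11, and 39.5, 35.4 and 38.5 FPKM in fibroblasts. It was active in fibroblasts and near 0 in the 3 lines, and fell by 4.77 on the log2 scale (SE 0.15, limma adjusted p = 2.18e-10). Both rows inside its span, a gammaretroviral pol row of 396 bp (XLOC_009239) and a row named pro-pol of 346 bp (XLOC_009238), were higher in fibroblasts too. XLOC_009239 had 0, 0 and 0.339 FPKM in ESC7, 3.07, 2.52 and 2.88 FPKM in ESC3, and 0.593, 0.803 and 0.310 FPKM in ESC11, against 5.92, 8.46 and 4.01 FPKM in fibroblasts. XLOC_009238 averaged 1.37, 1.40 and 1.11 FPKM in ESC7, ESC3 and ESC11 and 13.2 FPKM in fibroblasts.

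XLOC_006457, a POL row without strand (13:18869349-18874035), fell by 3.49 on the log2 scale (SE 0.06, limma adjusted p = 1.72e-12). Its values were 1.50, 1.52 and 1.44 FPKM in ESC7, 0.832, 0.733 and 0.680 FPKM in ESC3, 0.871, 0.898 and 1.24 FPKM in ESC11, and 21.7, 23.2 and 21.3 FPKM in fibroblasts. XLOC_024348 (9:111161656-111188236, - strand) had 0.0157 to 0.253 FPKM in ESC libraries and 4.99 to 5.10 FPKM in fibroblast libraries, and fell by 2.45 (SE 0.04, limma adjusted p = 2.54e-12). It overlaps a row named Magi2, a scaffold protein gene, at 0.315, 0.0966 and 0.130 FPKM in ESC7, ESC3 and ESC11 and 2.25 FPKM in fibroblasts. XLOC_009611 (16:55158611-55293765, - strand) had 0.832 to 2.01 FPKM in ESC libraries against 7.70 to 8.44 FPKM in fibroblast libraries.
XLOC_013955, a LIN1_NYCCO row that fell (3:46620571-46823427, + strand), averaged 27.4 ± 2.06 FPKM in ESC7, 13.3 ± 0.945 in ESC3, 25.5 ± 1.33 in ESC11 and 55.6 ± 4.23 in fibroblasts (SD, n = 3 each). Among ESC lines it was lowest in ESC3, and ESC7 and ESC11 overlapped.

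A pair of POL rows on opposite strands of the same 37995 bp (12:4678284-4716278) differed in behaviour. XLOC_003748 on the + strand had 7.09 to 8.89 FPKM in ESC libraries and 28.1 to 30.4 FPKM in fibroblast libraries, and fell by 1.71 (SE 0.05, limma adjusted p = 2.12e-10). XLOC_004282 on the - strand averaged 1.34, 0.469 and 0.706 FPKM in ESC7, ESC3 and ESC11 and 0.364 FPKM in fibroblasts, and was not called. Whether the counting used strand is not given in the sources used here, so reads of such a pair may be divided wrongly. There were 6 pairs of tested rows on opposite strands that overlapped.

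The gammaretroviral rows were few. Of 11, 8 were tested, and 2 of these (25%) rose in ESCs and 1 (12.5%) fell. These shares lie near those of all tested rows, 28.1% and 14.9%. The most expressed, XLOC_019479 (6:51441977-51454482, - strand, 12506 bp), had 34.8, 34.6 and 34.6 FPKM in ESC7, 41.3, 39.2 and 41.5 FPKM in ESC3, 30.3, 32.5 and 29.2 FPKM in ESC11, and 10.3, 11.1 and 10.3 FPKM in fibroblasts. Libraries of a line lay close together, each ESC library was above each fibroblast library, and the log2 difference was 1.64 (SE 0.04, limma adjusted p = 1.17e-11). XLOC_023543 (9:68109911-68131534, + strand) had 2.11 to 2.96 FPKM in ESC7, 0.914 to 1.26 in ESC3 and 1.07 to 1.26 in ESC11, was listed at 0 in the fibroblast libraries and was called (limma adjusted p = 4.23e-08). XLOC_014623 (3:41938778-41954059, - strand) had 2.38 to 3.00 FPKM in ESC libraries and 2.49 to 2.51 FPKM in fibroblast libraries (limma adjusted p = 0.178), so the groups overlapped.

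The POL rows with the highest levels differed in their response. The highest of all, ENSSSCG00000017089.L01 (16:78089202-78115994, - strand), whose identifier the reference pairs with the annexin gene ANXA6, averaged 220 ± 5.76 FPKM in ESC7, 158 ± 5.01 in ESC3, 191 ± 2.25 in ESC11 and 271 ± 2.91 in fibroblasts (SD, n = 3 each). Its log2 difference of -0.53 did not reach the fold limit. XLOC_000443 (1:146425603-146433225, + strand), the next, had 60.0 to 94.0 FPKM in ESC libraries and 68.3 to 73.7 FPKM in fibroblast libraries, which overlapped (log2 difference 0.12, SE 0.10, limma adjusted p = 0.295). ENSSSCG00000024477.L01, 408 bp within AOX1 on the opposite strand (15:115432961-115433368), averaged 40.3, 31.4 and 32.3 FPKM in ESC7, ESC3 and ESC11 and 13.4 FPKM in fibroblasts, and rose by 1.30 (SE 0.06, limma adjusted p = 3.11e-09). With median-ratio scaling its difference was 0.87, under the fold limit.
XLOC_000692 (1:231689013-231693942, + strand) had 3.63 to 28.6 FPKM in ESC libraries and 7.28, 0.254 and 5.30 FPKM in fibroblasts. It was called (log2 difference 2.08, limma adjusted p = 8.49e-03), but the groups overlapped, and without fibroblast library 2 its adjusted p was 0.0527. XLOC_009304, of 334628 bp (16:5141726-5476353, + strand), had 3.07 to 7.91 FPKM in ESC libraries and 4.96 to 8.09 FPKM in fibroblast libraries, with no call.

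**Figure D4:**
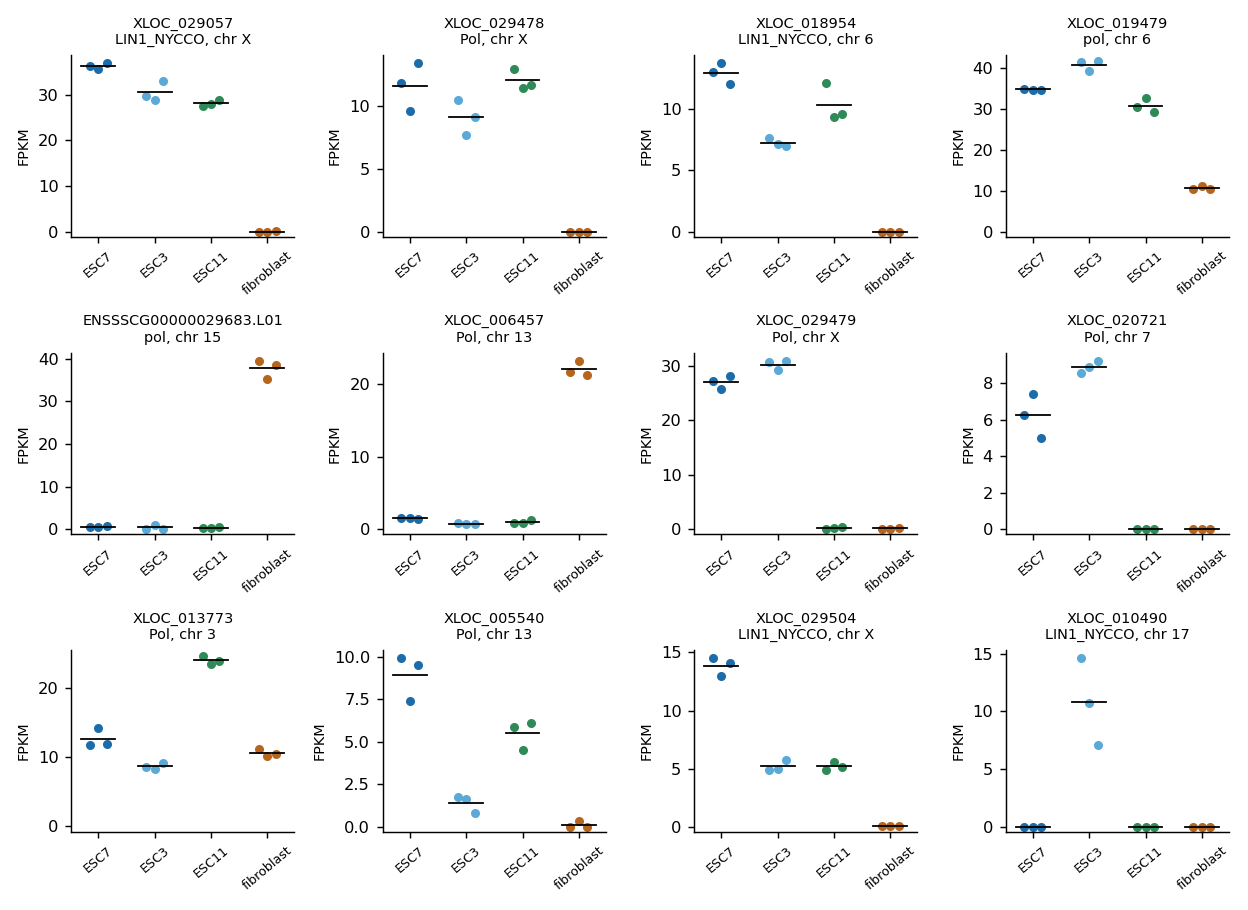
FPKM (y axis, a scale per panel) in each library (points) of ESC7, ESC3, ESC11 and fibroblasts, with group means (bars), for 12 rows named in the text, with the row's name and chromosome above each panel. XLOC_029057 and XLOC_029478 are near 0 in fibroblasts alone, ENSSSCG00000029683.L01 and XLOC_006457 are high in fibroblasts, XLOC_029479 and XLOC_020721 are high in ESC7 and ESC3, and XLOC_010490 is above 0 in ESC3 alone.

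The next comparison set the parthenogenetic lines against the IVF line. Of 197 tested rows, 10 (5.08%) rose in the parthenogenetic lines and 4 (2.03%) fell, against 1.52% and 0.678% of all tested rows (2.2% in both directions), and 2.27% and 1.08% of other rows weighted to the same classes. No test was made of that gap, and 3 of the 10 rows were under 300 bp, a class in which 18.7% of other unannotated rows rose. Scaling libraries to the same summed FPKM moved the median of all tested rows to -1.02. Under it 5 of 192 rows (2.60%) rose and 39 (20.3%) fell, against 0.539% and 52.8% of all rows tested.

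The clearest difference was at XLOC_029479, a POL row of 137684 bp on chromosome X (X:2144876-2282559, - strand). It had 27.3, 25.8 and 28.1 FPKM in ESC7, 30.7, 29.2 and 30.9 FPKM in ESC3, 0.0813, 0.189 and 0.393 FPKM in ESC11, and 0, 0.0906 and 0.243 FPKM in fibroblasts. Both parthenogenetic lines expressed it at similar levels, and ESC11 stood at the level of fibroblasts. The log2 difference of the parthenogenetic lines from ESC11 was 4.61 (SE 0.09, limma adjusted p = 2.96e-10). The unnamed row inside its span, XLOC_029862, followed with 2.41 FPKM in ESC7, 0.644 in ESC3, 0.0296 in ESC11 and 0 in fibroblasts on average.

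On chromosome 7, XLOC_020721, a POL row of 327285 bp (7:49370218-49697502, + strand), had 6.27, 7.44 and 5.01 FPKM in ESC7, 8.60, 8.90 and 9.23 FPKM in ESC3, and was listed at 0 in all ESC11 and all fibroblast libraries (limma adjusted p = 4.82e-09). Inside it lay 8 unnamed rows, untested and at most 1.88 FPKM, which were likewise above 0 in a parthenogenetic library and listed at 0 in all ESC11 and fibroblast libraries. XLOC_022015, a POL row of 400 bp upstream of it (7:49293304-49293703), averaged 1.35 FPKM in ESC7 and 3.43 FPKM in ESC3 and was listed at 0 in all ESC11 and fibroblast libraries. An interval of chromosome 7 thus held several rows with one pattern, and these rows are not independent of each other. On chromosome 2, the neighbours XLOC_013357 (LIN1_NYCCO, 2:47774939-47780580) and XLOC_013358 (POL, 2:47780687-47784474), 106 bp apart, averaged 1.32 and 2.07 FPKM in ESC7, 1.61 and 2.15 FPKM in ESC3, and 0.131 and 0.235 FPKM in ESC11, and both were called.

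XLOC_006479, a POL row of 1314 bp (13:34220969-34222282), was low in ESC11 alone. It had 5.09, 4.54 and 3.61 FPKM in ESC7, 5.01, 5.74 and 7.61 FPKM in ESC3, 0.622, 0.583 and 0.786 FPKM in ESC11, and 3.93, 4.62 and 3.62 FPKM in fibroblasts. Fibroblasts overlapped ESC7, and the parthenogenetic lines exceeded ESC11 by 1.89 (SE 0.12, limma adjusted p = 3.50e-06). XLOC_015131, a LIN1_NYCCO row of 411 bp (3:22463285-22463695), had 8.89, 10.9 and 8.98 FPKM in ESC7, 5.25, 5.74 and 3.76 FPKM in ESC3, and 1.63, 2.91 and 1.99 FPKM in ESC11 (log2 difference 1.33, SE 0.14, limma adjusted p = 1.24e-04). The 3 lines did not overlap in that row, and with libraries scaled to the same sum its difference was 0.42 (limma adjusted p = 0.0881).

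Among the 4 rows that fell in the parthenogenetic lines, XLOC_013773 had the most FPKM (3:22227006-22247880, + strand). It had 11.8, 14.2 and 11.8 FPKM in ESC7, 8.54, 8.26 and 9.23 FPKM in ESC3, 24.6, 23.4 and 23.9 FPKM in ESC11, and 10.6 ± 0.548 FPKM in fibroblasts (SD, n = 3). ESC11 was above both parthenogenetic lines and fibroblasts, and the row fell by 1.12 in the parthenogenetic lines (SE 0.06, limma adjusted p = 8.39e-07). The POL row on the opposite strand of nearly the same span, XLOC_014492, averaged 3.41 FPKM in ESC7, 4.20 in ESC3 and 6.73 in ESC11, with a difference of -0.69 that did not reach the fold limit.
The short rows XLOC_006609 and XLOC_003008 were also called higher in the parthenogenetic lines, with log2 differences of 2.19 (SE 0.58, limma adjusted p = 0.0255) and 1.64 (SE 0.49, limma adjusted p = 0.0429). XLOC_006609 averaged 24824 ± 10331 FPKM in ESC7, 11993 ± 5372 in ESC3 and 4605 ± 3891 in ESC11 (SD, n = 3 each). The limma call of XLOC_006609 was lost without ESC3 library 3 (adjusted p = 0.0502), ESC11 library 1 (0.0823) or ESC11 library 3 (0.112), with a replicate block (0.0510), and with quantile normalization (log2 difference 1.02, adjusted p = 0.206). Scaled to the same sum, its difference was 0.996, under the fold limit. The limma call of XLOC_003008 was lost without any 1 ESC library, or without fibroblast library 1, with adjusted p from 0.0544 to 0.150. It was also lost with no filter (adjusted p = 0.0516), with quantile normalization (0.0547) and with scaling to the same sum (log2 difference 0.45, adjusted p = 0.191).

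Each parthenogenetic line was then set against ESC11. The 2 comparisons share the ESC11 libraries, so their values are given side by side. In ESC7, 18 rows (9.14%) rose and 4 (2.03%) fell, against 2.14% and 0.799% of all tested rows (2.94% in both directions). Of other rows weighted to the same classes, 3.66% rose and 1.30% fell. In ESC3, 11 rows (5.58%) rose and 7 (3.55%) fell, against 1.49% and 0.996% of all tested rows (2.48% in both directions). The shares weighted to the same classes were 2.00% and 1.45%. Scaled to the same summed FPKM, which moved the median of all tested rows to -0.86 and -1.16, 7 of 192 rows (3.65%) rose and 25 (13.0%) fell in ESC7, against 0.787% and 31.8% of all rows tested. In ESC3, 6 (3.12%) rose and 66 (34.4%) fell, against 0.464% and 66.3%. XLOC_001699 was listed at 0 in all ESC7 and ESC3 libraries and had 1.24 to 2.16 FPKM in ESC11. XLOC_029479 had differences of 4.53 in ESC7 and 4.69 in ESC3, and XLOC_006479 had 1.69 and 2.08. XLOC_025392, a POL row on the scaffold GL893138.2 (GL893138.2:23450-24023), had 7.69, 5.41 and 4.46 FPKM in ESC7 and 13.7, 15.3 and 11.1 FPKM in ESC11, and fell by 1.08 (SE 0.19, limma adjusted p = 2.11e-03), while ESC3, at 8.44, 11.8 and 11.4 FPKM, overlapped ESC11. Without ESC7 library 3 or ESC11 library 2 its difference was -0.93 or -0.99, under the fold limit.

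**Figure D5:**
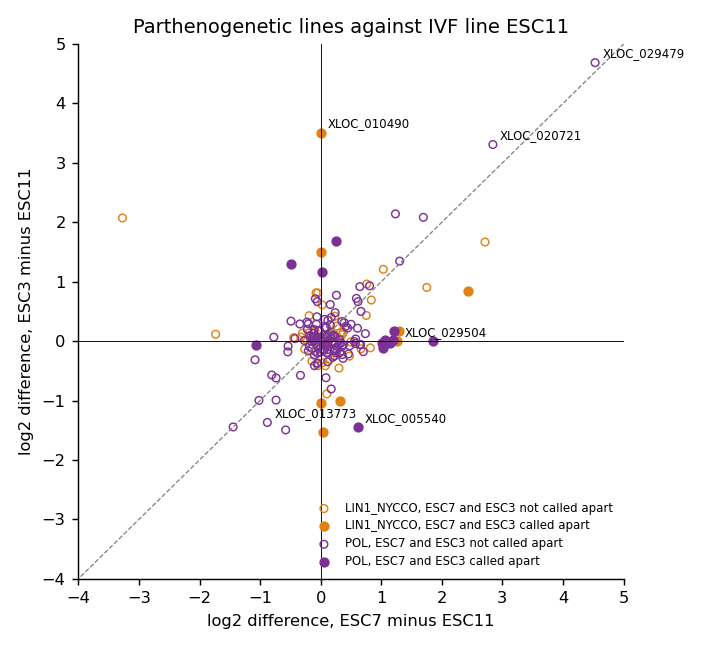
Log2 difference of ESC3 minus ESC11 (y axis) against that of ESC7 minus ESC11 (x axis), both on the log2(FPKM + 1) scale and sharing the ESC11 libraries, for the 197 tested rows, POL in purple and LIN1_NYCCO in orange, with rows called between ESC7 and ESC3 filled and equal differences as a dashed line. XLOC_029479 is far from 0 in both lines, at 4.53 and 4.69, and XLOC_010490 departs in ESC3 alone.

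The parthenogenetic lines also differed from each other. Between ESC7 and ESC3, 14 rows (7.11%) were higher in ESC7 and 6 (3.05%) lower, against 2.34% and 1.04% of all tested rows (3.38% in both directions) and 3.56% and 1.69% of other rows weighted to the same classes. The libraries of both lines did not overlap in these 20 rows, which held for 98.5% of all rows called. With quantile normalization 8 rows (4.06%) were higher and 8 (4.06%) lower in ESC7, against 1.90% and 1.33% of all tested rows. With the same summed FPKM 14 (7.29%) were higher and 3 (1.56%) lower, against 3.39% and 0.523%.

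XLOC_005540 (13:156708150-156718285, + strand), a POL row of 10136 bp, had 9.89, 7.40 and 9.48 FPKM in ESC7, 1.75, 1.62 and 0.811 FPKM in ESC3, 5.87, 4.50 and 6.08 FPKM in ESC11, and 0, 0.322 and 0 FPKM in fibroblasts. ESC3 was the low line, with a log2 difference of ESC7 from ESC3 of 2.07 (SE 0.19, limma adjusted p = 1.66e-05). On chromosome X, XLOC_029504 had 14.5, 13.0 and 14.1 FPKM in ESC7, 4.90, 4.93 and 5.73 FPKM in ESC3, and 4.86, 5.55 and 5.12 FPKM in ESC11, a difference of 1.27 between ESC7 and ESC3 (SE 0.07, limma adjusted p = 4.76e-07). There ESC7 was the high line, and ESC3 and ESC11 overlapped. XLOC_029051, a LIN1_NYCCO row (X:682822-702472, + strand), averaged 3.07 ± 0.0524 FPKM in ESC7, 0.377 ± 0.0371 in ESC3 and 2.98 ± 0.0446 in ESC11 (SD, n = 3 each) and was listed at 0 in all fibroblast libraries.

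Higher in ESC7 were also ENSSSCG00000003688.L01, the longest row (442965 bp, 6:95347992-95790956, + strand), and XLOC_009382 (63744 bp, 16:46165791-46229534, + strand). ENSSSCG00000003688.L01 had 8.03, 6.64 and 6.64 FPKM in ESC7, 2.91, 3.32 and 2.67 FPKM in ESC3, 2.85, 2.68 and 2.04 FPKM in ESC11, and 0.0683, 0 and 0 FPKM in fibroblasts, with 1.03 between ESC7 and ESC3 (SE 0.10, limma adjusted p = 3.75e-05), which fell under the fold limit without ESC3 library 3 (0.98) or ESC7 library 1 (0.95) and with quantile normalization (0.94). XLOC_009382 averaged 5.14 ± 0.625 FPKM in ESC7, 1.85 ± 0.997 in ESC3, 1.99 ± 0.193 in ESC11 and 0.125 ± 0.0375 in fibroblasts (SD, n = 3 each), with 1.16 between ESC7 and ESC3 (0.94 without ESC3 library 2, under the fold limit). XLOC_015132, a POL row of 462 bp that lies 215 bp from XLOC_015131, had 7.84, 8.38 and 4.55 FPKM in ESC7, 1.89, 3.23 and 2.32 FPKM in ESC3, and 2.32, 2.58 and 2.64 FPKM in ESC11. In these 3 rows ESC7 was the high line, and ESC3 and ESC11 overlapped.

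The row most restricted to 1 line was XLOC_010490, a LIN1_NYCCO row of 284 bp (17:14229402-14229685). It had 14.6, 10.7 and 7.07 FPKM in the ESC3 libraries and was listed at 0 in all 9 libraries of ESC7, ESC11 and fibroblasts (limma adjusted p = 3.50e-07 between ESC7 and ESC3). At this length the level is uncertain, and the depth behind a listing at 0 is unknown. XLOC_003008 had 1162, 690 and 766 FPKM in ESC7, 307, 221 and 327 FPKM in ESC3, and 240, 134 and 119 FPKM in ESC11, with a difference of 1.59 between ESC7 and ESC3 (SE 0.57, limma adjusted p = 0.0480). That call was lost without any 1 ESC library or without fibroblast library 1, with adjusted p from 0.0512 to 0.136, and with a pseudocount of 0.1, no filter, no variance trend, quantile normalization or median-ratio scaling, with adjusted p from 0.0510 to 0.0593.

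Of the 197 tested rows, 102 (51.8%) were called in none of the 5 comparisons. Rows were often within or beside other transcripts, and 89 of the 197 (45.2%) overlapped another row. Across 74 pairs of a tested POL or LIN1_NYCCO row with an overlapping tested row of another name (60 such rows), the log2 differences of both had a Pearson correlation of 0.49 for ESCs against fibroblasts and 0.41 for the parthenogenetic lines against ESC11. It was 0.64 for ESC7 against ESC11, 0.14 for ESC3 against ESC11 and 0.33 for ESC7 against ESC3. Overlapping rows share genomic sequence, libraries and possibly reads, so these values are a description. Read-through from a host gene was not tested.

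Genes known to act on transposons were examined from lists set by their function, and list genes outside the table are not analysed here. Over all tested rows 28.1% rose in ESCs and 14.9% fell, and 58.5% were higher and 29.6% lower at an unadjusted p under 0.05, which is the background of the counts that follow. Of 13 tested genes of heterochromatin, 6 rose in ESCs (limma), and 11 had a higher and 0 a lower level at an unadjusted p under 0.05. Their median log2 difference was 0.98, against 0.44 over all tested rows. The largest rise was in EHMT2, a histone H3 lysine methyltransferase, at 49.8, 58.0 and 57.8 FPKM in ESC7, ESC3 and ESC11 and 12.9 FPKM in fibroblasts (log2 difference 2.01, limma adjusted p = 2.10e-12), while SETDB1, a methyltransferase that silences retroelements, had 12.7, 12.9 and 13.2 FPKM in the lines and 13.1 FPKM in fibroblasts. None of the 4 tested genes of the HUSH complex, which silences LINE-1 in human cells, was called by limma in any of the 5 comparisons, and 3 were higher in ESCs than in fibroblasts at an unadjusted p under 0.05 (median difference 0.26). Of 9 tested genes of DNA methylation, 4 rose in ESCs, with 8 higher and 1 lower at an unadjusted p under 0.05 and a median difference of 0.81. The 4 were DNMT3A, DNMT3B, HELLS and TET1, and the lower gene was TET2. The list holds the TET enzymes as well as methyltransferases, so its count is not one of methyltransferases alone. HELLS, a chromatin remodeller needed for methylation of repeats in mouse, averaged 132, 128 and 123 FPKM in the lines and 10.4 FPKM in fibroblasts, and the methyltransferase DNMT3B 806, 906 and 966 FPKM in the lines and 1.49 FPKM in fibroblasts. DNMT1, the maintenance methyltransferase, was not called, at 60.5, 69.9 and 71.7 FPKM in the lines and 44.0 FPKM in fibroblasts.

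Of 16 measured genes of the piRNA pathway, which silences transposons in germ cells, 4 were tested, and TDRD12 and HENMT1 rose in ESCs (median difference of the 4 genes 1.07). HENMT1, the methyltransferase of piRNA 3′ ends, differed between the lines, at 26.0 ± 1.50 FPKM in ESC7, 1.18 ± 0.257 in ESC3, 20.7 ± 0.772 in ESC11 and 0.0336 ± 0.0581 in fibroblasts (SD, n = 3 each). Its log2 difference between ESC7 and ESC3 was 3.64 (limma adjusted p = 1.34e-09).

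Of 7 tested genes that descend from retroelements, 3 rose in ESCs (LDOC1, LDOC1L and PNMA1) and 1 fell, with a median difference of 0.95. The gene that fell was PEG10, a paternally expressed imprinted gene derived from a retrotransposon, at 0.313 ± 0.542 FPKM in ESC7, 0.245 ± 0.133 in ESC3, 81.5 ± 3.06 in ESC11 and 1440 ± 84.3 in fibroblasts (SD, n = 3 each). It fell by 8.16 in ESCs (limma adjusted p = 9.25e-12) and by 6.05 in the parthenogenetic lines against ESC11 (limma adjusted p = 9.93e-09). Of 12 tested rows with other retroelement or transposase names, 3 rose in ESCs (PGBD5, TIGD3 and THAP9) by limma, and 10 were higher and 0 lower at an unadjusted p under 0.05 (median difference 0.45). PGBD5, a transposase-derived gene, averaged 27.4, 28.0 and 37.3 FPKM in ESC7, ESC3 and ESC11 and 0.927 FPKM in fibroblasts.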

How the data were processed

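The authors deposited FPKM values of 30012 loci in 12 polyA RNA libraries, 3 per group. STAR 2.4.0b and Cufflinks 2.1.1 appear in the submitters' processing notes with the build Sscrofa10.2, and the role of each is not stated. Strandedness, multiply mapped reads and the way gene names were assigned are not given in the sources used here. Summed FPKM of a library ran from 2375980 to 7715470.

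Rows named POL or LIN1_NYCCO were taken in any letter case, and span is end minus start plus 1. Values were used as log2(FPKM + 1). The 18278 rows that reached 1 FPKM in 3 or more libraries entered a single limma fit of the group means (limma 3.58.1, R 4.3.3), with variance moderation along the mean, two-sided tests and adjustment over all of them. On simulated data 63 of 67 rows changed by 1.5 (log2) were recovered between ESCs and fibroblasts, with 5 false calls among 18078 unchanged rows. The changed rows were drawn only from rows with a mean log2(FPKM + 1) above 3. Most tested POL and LIN1_NYCCO rows were lower, so the recovery does not describe them.

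The rows and gene lists were chosen with earlier results of these data known. A list of genes acting on retroelement RNA is not reported here. Named rows were the 6 highest of each name, up to 5 called rows per direction and comparison with a mean of at least 5 FPKM on the higher side and no overlap, likewise from 1000 bp, the 5 longest, and rows of 1 group. XLOC_001699, XLOC_002596, XLOC_004282, XLOC_013357, XLOC_013358, XLOC_014492, XLOC_014623, XLOC_022015, XLOC_023543 and XLOC_029051 were chosen after their values were seen. Alternatives changed the pseudocount, filter, scaling, variance trend, libraries, fold limit and set of rows.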

Additional observations from a re-analysis of the deposited data

Results flagged for a closer look

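The test of ESC7 against ESC3, which is that of the difference between the lines in their departure from ESC11, called 20 of 197 rows, and 8 of these are among the rows named by rule. The log2(FPKM + 1) difference of ESC7 from ESC3 was 2.07 in XLOC_005540, 1.59 in XLOC_003008, 1.27 in XLOC_029504, 1.17 in XLOC_015132, 1.16 in XLOC_009382 and 1.03 in ENSSSCG00000003688.L01, each higher in ESC7. It was -3.51 in XLOC_010490 and -1.79 in XLOC_009239, both higher in ESC3, and in XLOC_010490 the ESC7 libraries were listed at 0. In the comparison of the lines as a pair with ESC11, 6 of these 8 rows had no call.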

How the results depend on the processing

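The 5 comparisons are named here in the order ESCs against fibroblasts, parthenogenetic lines against ESC11, ESC7 against ESC11, ESC3 against ESC11, and ESC7 against ESC3, with 79, 14, 22, 18 and 20 called rows of 197. Of all 18278 tested rows, 43.1%, 2.2%, 2.94%, 2.48% and 3.38% were called. For the settings below, shares over all tested rows are given only where libraries were rescaled. The other counts thus cannot show whether these rows or the whole table moved. The subsets of rows are smaller than 197, and their sizes are not given. A pseudocount of 5 left 22, 4, 5, 4 and 4 calls, and one of 0.1 gave 136, 29, 29 and 40 calls in all but ESC7 against ESC11, where the count stayed within 1.5-fold. No fold limit gave 177, 61, 76, 58 and 91. An FPKM of at least 5 in 3 libraries left 29, 8, 9, 6 and 5, and rows overlapping no other row 37, 9, 14, 11 and 13. Rows of 1000 bp and over held 8 calls for the parthenogenetic lines against ESC11, 13 for ESC7 against ESC11 and 12 for ESC7 against ESC3. Scaling to the same summed FPKM gave 44 calls for the parthenogenetic lines against ESC11 and 72 for ESC3 against ESC11, and quantile normalization 14 for ESC7 against ESC11. Of all rows tested under the same sum, 0.539% rose and 52.8% fell in the first of these, and 0.464% and 66.3% in the second. With quantile normalization 1.60% of all tested rows rose and 0.996% fell in ESC7 against ESC11. Leaving out each library in turn gave 77 to 81, 11 to 15, 19 to 23, 18 to 21, and 17 to 21 calls.

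With a replicate block the counts were 79, 13, 22, 18 and 20. The labels share replicate numbers across groups, but the deviations of same-numbered libraries correlated by only -0.0900 to 0.0867 in 18 pairs. No pairing was thus seen over the tested rows together. A pairing that affects few rows could be missed in this way. Rows without an Ensembl identifier, an alternative chosen after seeing the data, held 72, 13, 21, 16 and 18 calls. The summed level over rows of 300 bp and over was 1156 FPKM in ESC7, 984 in ESC3, 992 in ESC11 and 833 in fibroblasts, and over rows of 1000 bp and over 1025, 861, 883 and 784, against 28325, 20076, 7608 and 6670 over all 645 rows. After median-ratio scaling the mean sum over all rows was 7134 FPKM in ESC11 and 8461 FPKM in fibroblasts, which turns their order. Of 1370 values recomputed for 60 called results of named rows, 1285 kept call and direction, 85 lost the call, 27 of them with a pseudocount of 5, and none changed sign. With no fold limit all 60 were kept, which was fixed in advance, as that setting only relaxes the limit of the same fit. The 60 results were picked as called in these data, so these counts are no independent support. Depth is unknown, so whether a listing at 0 reflects low sampling cannot be judged.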
